A study of Saccharomyces cerevisiae with 4 samples.

Results

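MIP6 and PES4 code for a pair of related RNA-binding proteins of budding yeast. Both genes were found by name in the series' table of features, and they are 2 of the 7126 features in the count files. Described here are the reads on these genes in RNA recovered with the Mip6 protein. MIP6 is feature YHR015W on chromosome VIII (134554 to 136533, build R64), and PES4 is feature YFR023W on chromosome VI (199874 to 201709). Both lie on the plus strand, both are protein-coding, and no other gene of the RefSeq annotation overlaps either.

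Mip6 and Pes4 are paralogues that arose in the ancient duplication of the yeast genome. Each carries several RNA recognition motifs (RRMs), the most common RNA-binding fold, and both are best known for acting on mRNAs during sporulation, the programme in which a starved diploid cell forms spores. In growing cells Mip6 is known to contact Mex67, the receptor that carries mRNA through the nuclear pore. Several yeast RNA-binding proteins, such as the poly(A)-binding proteins Pab1 and Nab2, are known to bind the mRNA that encodes them.

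The study used PAR-CLIP. Cells are fed 4-thiouracil, light at 365 nm crosslinks RNA that holds it to protein, and the RNA that stays on the purified protein is sequenced. All samples came from the Saccharomyces cerevisiae strain Mip6-HTB, whose Mip6 protein carries a tag for purification on nickel and streptavidin beads. Cells of the untreated group were kept at 30 °C, with 4-thiouracil for 45 min. Those of the heat group had 25 min of 4-thiouracil at 30 °C and 20 min at 39 °C, and both were irradiated for 15 min. The labels also give an incubation at 30 °C of 30 min for the untreated group and 10 min for the heat group. For all samples they give 2% glucose and a culture density (OD600) of 0.6 to 0.8. By the sample titles, reads of the minus and of the plus strand were deposited as separate samples, so the 4 samples amount to 1 library per temperature and temperatures could not be compared by a test. The intervals below are exact 95% binomial intervals that take reads as independent, cover counting error only and leave out the difference between cultures. No untagged strain or input RNA was among the samples, so a change in reads can reflect the mRNA level as well as contact with Mip6. The labels do not say how the tag was joined to MIP6 or whether that altered the end of its mRNA in this strain.

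Reads in features numbered 11657228 at 30 °C and 6950540 at 39 °C. Features with at least 20 own-strand reads over both libraries are called tested here, and their median was 1233 own-strand reads at 30 °C and 706 at 39 °C. Own-strand reads are those in the sample of the strand that the gene lies on, which for MIP6 and PES4 is the plus-strand sample. Levels are given as CPM, the reads per 1000000 feature reads of both strand samples of a temperature, and ratios as log2 of the 39 °C over the 30 °C CPM after adding 0.5 to each count.

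MIP6 had 267 own-strand reads at 30 °C and 453 at 39 °C, in the smaller library. This is 22.9 CPM (20.2 to 25.8) at 30 °C and 65.2 CPM (59.3 to 71.5) at 39 °C. The 2 intervals do not overlap. The log2 ratio was 1.51 (1.29 to 1.73), which is 2.84-fold more at 39 °C.

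PES4 had 129 own-strand reads at 30 °C and 366 at 39 °C. Its level was 11.1 CPM (9.24 to 13.1) at 30 °C and 52.7 CPM (47.4 to 58.3) at 39 °C, again with no overlap. The log2 ratio of 2.25 (1.96 to 2.55) corresponds to 4.75-fold more. Reads on PES4 thus had the larger ratio of the pair. The difference of the log2 ratios, PES4 minus MIP6, was 0.74 with an exact counting interval of 0.37 to 1.12, and no choice of library total enters it.

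**Figure D1:**
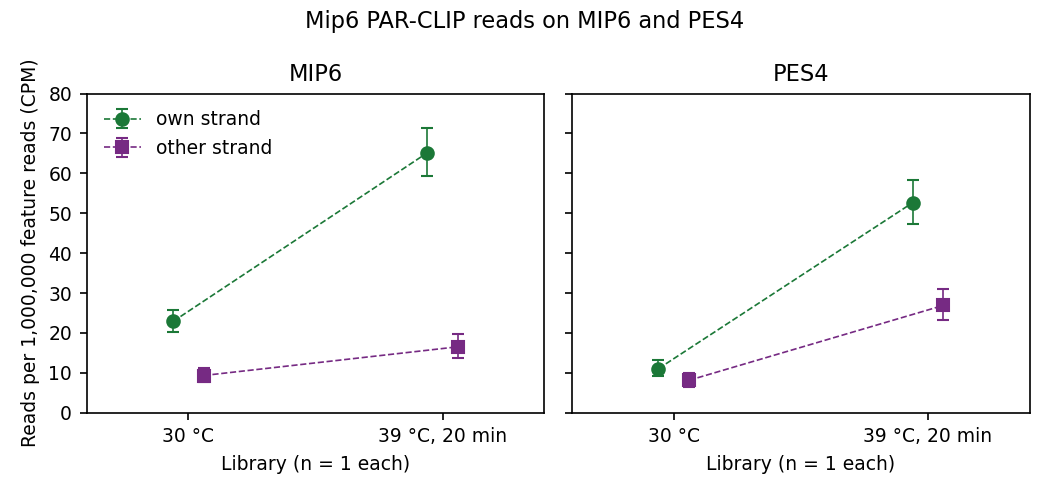
Reads per 1000000 feature reads (CPM) on MIP6 (left) and PES4 (right) in the 30 °C and 39 °C libraries, with 1 library each. Circles are own-strand and squares other-strand reads, bars are exact 95% binomial counting intervals, and dashed lines only join the same quantity. Own-strand reads of MIP6 go from 22.9 to 65.2 CPM and those of PES4 from 11.1 to 52.7 CPM.

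Both genes were read at low levels for their length. Per kilobase of feature, the own-strand level of MIP6 was 11.6 CPM at 30 °C and 32.9 at 39 °C, and that of PES4 was 6.03 and 28.7 CPM. The median tested feature had 74.4 CPM per kilobase at 30 °C and 73.7 at 39 °C. Of the 6181 tested features, 9.16% lay below MIP6 and 5.6% below PES4 at 30 °C. At 39 °C the shares below them were 22.8% for MIP6 and 19.6% for PES4, and both lay below the lower quartile of 35.9 CPM per kilobase.

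Set against each other per kilobase, PES4 had 0.521 times the level of MIP6 at 30 °C (0.419 to 0.645) and 0.871 times at 39 °C (0.757 to 1). At 30 °C the paralogues therefore differed beyond counting error, with MIP6 the higher. At 39 °C the upper bound lay at equality and the order of the pair is not settled by the counts.

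By log2 ratio the 2 genes stood near the top of all features. PES4 was at rank 21 and MIP6 at rank 86 of 6181. At least 2-fold higher at 39 °C were 273 features, or 4.42%, and both members were among them, while 167 features (2.7%) were at least 2-fold lower. The middle of the distribution was narrow, with a median log2 ratio of -0.03 and quartiles of -0.33 and 0.29. When tested features were put into 10 classes of equal size by mean CPM per kilobase, MIP6 and PES4 fell into the same class (14.5 to 28.6). There 48 of 618 features were 2-fold higher, or 7.77%, and 19 were 2-fold lower. In this class the median log2 ratio was 0.14, 16 features reached the ratio of MIP6 or more, itself included, and 4 reached that of PES4 or more.

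**Figure D2:**
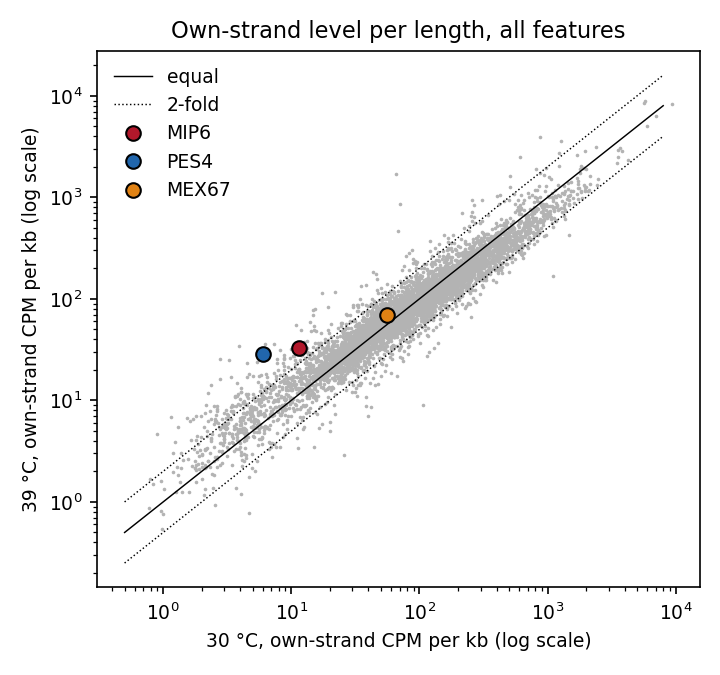
Own-strand CPM per kilobase at 30 °C (x axis) and 39 °C (y axis), both on log scales, for the 6181 tested features (grey), MIP6, PES4 and MEX67. The solid line marks equal levels and dotted lines 2-fold differences. MIP6 and PES4 sit above the upper dotted line in the weakly read part of the cloud, and MEX67 lies near the line of equality.

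MEX67, the export receptor that Mip6 contacts (YPL169C, chromosome XVI, 229039 to 230838), had 1169 own-strand reads at 30 °C and 877 at 39 °C. Its level was 100.3 CPM (94.6 to 106.2) and 126.2 CPM (118 to 134.8), a log2 ratio of 0.33 (0.20 to 0.46). The log2 ratio of MIP6 was higher than that of MEX67 by 1.18 (0.92 to 1.44) and that of PES4 by 1.92 (1.60 to 2.25). Reads on MEX67 were thus within 2-fold, while those on MIP6 and PES4 were not.

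The authors' deposited table holds a log2 ratio with the opposite sign, below 0 where the 39 °C library is higher. Across 6181 features its negative and the own-strand log2 ratio computed here were correlated with a Pearson r of 0.95. The labels do not state which counts the authors' ratio was computed from, so the 2 were not taken as independent. The authors' ratio is -1.46 for MIP6 and -2.32 for PES4. The probability score of the authors' deposited table is 0.864 for MIP6 and 0.898 for PES4, and features above 0.9 carry a call in either direction. Neither gene has a call, and PES4 lies just under that limit. Of 6918 features with a ratio in the authors' deposited table, 211 (3.05%) are called up, which is higher at 39 °C, and 354 (5.12%) down. A total of 58 features have a ratio further below 0 than PES4 in the authors' deposited table, and 46 of these have no call either. Of the 273 features 2-fold higher by own-strand reads, 118 are called up in the authors' deposited table.

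Reads on the strand opposite the gene were a sizeable part of the signal at both loci. Such a share also depends on the own-strand level, which was low for both genes. Shares were not compared within the level class of MIP6 and PES4. For MIP6 the other strand had 109 reads at 30 °C and 115 at 39 °C, or 9.35 CPM (7.68 to 11.3) and 16.5 CPM (13.7 to 19.9). That is 29% of the gene's reads at 30 °C (24.5 to 33.9) and 20.2% at 39 °C (17 to 23.8). For PES4 the other strand had 95 and 187 reads, or 8.15 CPM (6.59 to 9.96) and 26.9 CPM (23.2 to 31). This made up 42.4% of its reads at 30 °C (35.9 to 49.2) and 33.8% at 39 °C (29.9 to 37.9). The other-strand share was the larger for PES4 at both temperatures, and for MIP6 the intervals of the 2 temperatures do not overlap. Among neighbours described below, the 30 °C other-strand level was 10.6 CPM for LSB3, 10.7 for YSC83 and 11.1 for HIS2. Their shares were only 3.58%, 11.4% and 8.74%. YSC84 with 5.40 CPM, ROG3 with 3.95 and RUF22 with 1.03 had fewer CPM than MIP6 and PES4. All these other-strand values are per feature and not scaled to length. Of these neighbours only ROG3, with 2202 bases, is longer than MIP6 and PES4. At 39 °C all these neighbours had fewer CPM than both genes, with HIS2 the highest at 10.4 CPM. MIP6 has 1980 bases and PES4 1836, while HIS2 has 1008 and RUF22 515, so the order per kilobase can differ. SPO13, described under the other observations, is not among these neighbours and had 69.8 CPM on its other strand at 39 °C.

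Most features had a smaller share on the other strand. The median over tested features was 6.02% at 30 °C and 8.09% at 39 °C. Of the 6181 features, 15.3% had a share at least as large as MIP6 at 30 °C and 11.1% one as large as PES4. At 39 °C these were 23.6% and 15.2%. Over all stranded features, other-strand reads were 8.67% of reads at 30 °C and 11.6% at 39 °C.

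**Figure D3:**
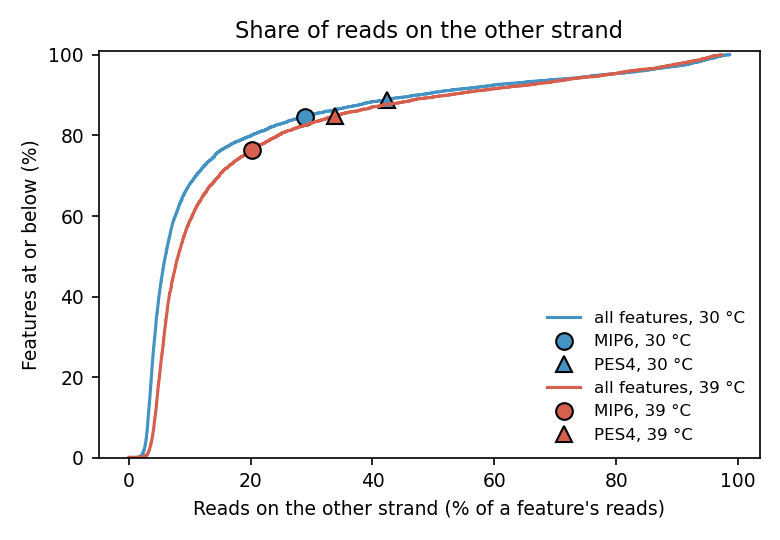
Share of a feature's reads on the strand opposite the gene (x axis, percent) against the percent of the 6181 tested features at or below that share (y axis), at 30 °C (blue line) and 39 °C (red line). Circles mark MIP6 and triangles PES4. MIP6 moves from 29% to 20.2% and PES4 from 42.4% to 33.8%, while the curve of all features shifts to larger shares at 39 °C.

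The other-strand reads of both genes were also more abundant at 39 °C. The other-strand log2 ratio was 0.82 (0.43 to 1.21) for MIP6 and 1.72 (1.36 to 2.09) for PES4. PES4 was thereby 2-fold higher on this strand too, and MIP6 was not. Among 6304 features with at least 20 other-strand reads, 10.5% were 2-fold higher and 0.999% were 2-fold lower, and all other-strand reads together had a log2 ratio of 0.42. Against that total MIP6 was higher by 0.40 (0.01 to 0.79), an interval that nearly reaches no difference, and PES4 by 1.30 (0.94 to 1.68). Within each gene the own strand had the larger ratio, by 0.68 (0.23 to 1.14) for MIP6 and by 0.53 (0.05 to 1.00) for PES4.

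The genes that follow MIP6 and PES4 are themselves a duplicated pair and are read toward them from the minus strand. YSC84, which codes for an actin-binding protein of endocytosis, lies 347 bases beyond MIP6, and its paralogue LSB3 250 bases beyond PES4. The end of each of these genes, not its start, faces the member. Own-strand YSC84 had 1337 reads at 30 °C and 677 at 39 °C, a log2 ratio of -0.24 (-0.37 to -0.10). LSB3 had 3344 and 1497 reads, a log2 ratio of -0.41 (-0.50 to -0.33). Reads of YSC84 and LSB3 thus went the other way from the reads on the same strand inside MIP6 and PES4. Minus-strand reads at the other neighbours were mixed. Around PES4 the log2 ratio was 1.56 (0.78 to 2.40) on the noncoding RNA gene RUF22 and -0.17 (-0.30 to -0.03) on HIS2. Opposite ROG3 it was 1.08 (0.50 to 1.67) from 46 and 58 reads, past 2-fold with a lower bound under it. Opposite YSC83, near MIP6, it was -0.57 (-1.08 to -0.09). The log2 ratio of MIP6 other-strand reads exceeded that of YSC84 by 1.06 (0.64 to 1.47), and that of PES4 other-strand reads exceeded that of LSB3 by 2.13 (1.76 to 2.52). The files hold no positions within a feature, so where the other-strand reads begin and end was not tested.

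On their own strand, the other annotated neighbours were within 2-fold, with 1 exception. YSC83, a mitochondrial protein gene beyond YSC84, had an own-strand log2 ratio of 0.39 (0.25 to 0.53). HIS2, an enzyme of histidine synthesis beyond LSB3, had -0.17 (-0.30 to -0.03). ROG3, an alpha-arrestin gene that lies 839 bases before PES4 on the same strand, had 496 and 487 reads and a log2 ratio of 0.72 (0.54 to 0.90). RUF22, a noncoding RNA gene of the minus strand 60 bases before PES4, was the exception. It had 22 reads at 30 °C and 39 at 39 °C on its own strand, a log2 ratio of 1.56 (0.78 to 2.40), and the lower bound lies under 2-fold. The 2 genes before MIP6 are tRNA genes and were not analysed here.

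**Figure D4:**
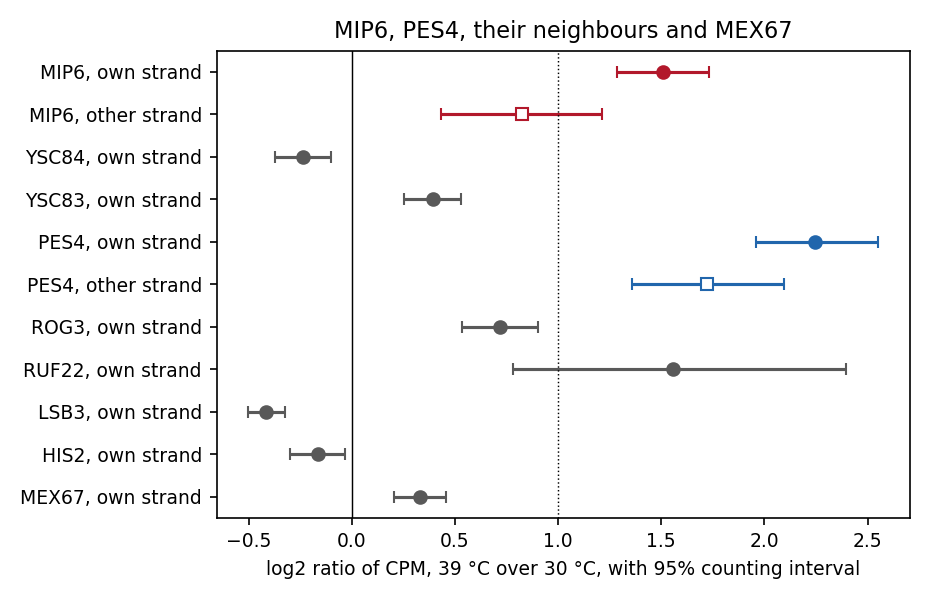
Log2 ratio of CPM, 39 °C over 30 °C, with exact 95% counting intervals, for MIP6 and PES4 on their own strand (filled) and the other strand (open squares), for the own strand of their annotated neighbours and for MEX67. The solid line marks no difference and the dotted line 2-fold. PES4 at 2.25 and MIP6 at 1.51 lie right of the dotted line, while YSC84 and LSB3 lie left of the solid one.

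The 4 protein-coding genes nearest to each member were taken by distance over log2 own-strand CPM per kilobase in the 2 libraries, among 5826 genes. Nearest to MIP6 was YOL162W with 82 and 132 reads, at a distance of 0.19. MEI4, needed for meiotic recombination, followed at 0.21 with 191 and 282 reads. DGR1 lay at 0.22 with 17 and 33 reads, and ATO2, a gene of the ammonium transporter family, at 0.24 with 125 and 223 reads. Their log2 ratios ran from 1.31 for MEI4 to 1.68 for DGR1. Nearest to PES4 was SPO74, a part of the meiotic spindle pole body, at 0.32 with 90 and 309 reads and a log2 ratio of 2.52 (2.18 to 2.88). BNA2, an enzyme of NAD synthesis, lay at 0.42 with a log2 ratio of 2.28, YNL277W-A at 0.50 with 2.33, and ZIP2, of chromosome synapsis, at 0.55 with 1.67. PES4 had fewer close neighbours than MIP6, as even its nearest gene lay farther off than all 4 of MIP6. The paralogues were not among each other's nearest genes, as they lay 0.96 apart. With 2 libraries such a distance only describes level and ratio.

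Genes of other RRM proteins were then set beside the pair. All 45 RRM genes listed were measured, and 2 were at least 2-fold higher, 43 were within 2-fold and none was lower by that much. The 2 higher genes are 4.44% of the list, close to the 4.42% of all tested features. The median log2 ratio of the 45 genes was -0.26, against -0.03 over all tested features. The highest was RIE1 with 2002 and 3157 reads and a log2 ratio of 1.403 (1.32 to 1.48), which lies inside the interval of MIP6 and below that of PES4. RNP1 had 1.26 (0.29 to 2.29) from 16 and 23 reads, and JSN1, of the Puf family of RNA-binding proteins, had 0.56 (0.43 to 0.69). The lowest were MRN1 with -0.998 (-1.10 to -0.90), the export factor gene YRA2 with -0.97 (-1.22 to -0.74) and SBP1, a repressor of translation, with -0.94 (-1.17 to -0.72). RNP1 was the only RRM gene listed with a lower own-strand level per kilobase than MIP6 or PES4 at 30 °C.

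None of the 26 genes of Mex67 and its export partners was past 2-fold in either direction, and their median log2 ratio was -0.08. Over all tested features 4.42% were 2-fold higher and 2.7% lower, so a count of 0 among 26 genes is near the background. MEX67 itself was the second highest, after NUP42, a nucleoporin, with 0.47 (0.15 to 0.78), and before NPL3, an mRNA-binding export factor, with 0.29 (0.15 to 0.43). YRA2, the helicase gene SUB2 with -0.66 (-0.73 to -0.59) and the adaptor gene YRA1 with -0.54 (-0.61 to -0.48) were the lowest. This list shares 5 genes with that of RRM proteins.

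The 21 regulators of the sporulation programme included 3 genes at least 2-fold higher and 1 lower, with 17 within 2-fold and a median log2 ratio of 0.03. The 3 higher genes are 14.3% of the list and the lower gene 4.76%, against 4.42% and 2.7% of all tested features and 7.77% higher in the level class of MIP6 and PES4. The higher genes had few reads and lay below that class, which spans a mean of 14.5 to 28.6 CPM per kilobase. They had 2.19 to 4.20 CPM per kilobase at 30 °C and 4.95 to 9.57 at 39 °C. The share of features 2-fold higher at their own level is not given here. The kinase gene SPS1 had 49 and 67 reads and a log2 ratio of 1.19 (0.64 to 1.76), IME1, the master regulator of entry into meiosis, had 53 and 72 reads and 1.18 (0.66 to 1.73), and the mRNA methyltransferase gene IME4 had 46 and 62 reads and 1.17 (0.60 to 1.76). Much of what was read at these loci was on the other strand, with 49.5% for SPS1, 68.3% for IME1 and 92.4% for IME4 at 30 °C. Such shares were not particular to the higher genes, as those of regulators within 2-fold reached 92.3%. Of the 3 lowest genes, RIM4 had 47.5% at 30 °C, SUM1 25.1% and CLB1 3.03%. At the low end stood the cyclin gene CLB1 with -1.47 (-1.58 to -1.36), RIM4, whose product represses translation of meiotic mRNAs, with -0.48 (-0.68 to -0.28), and SUM1, a repressor of middle sporulation genes, with -0.26 (-0.42 to -0.10). No gene of these 3 lists had a log2 ratio above that of MIP6.

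**Figure D5:**
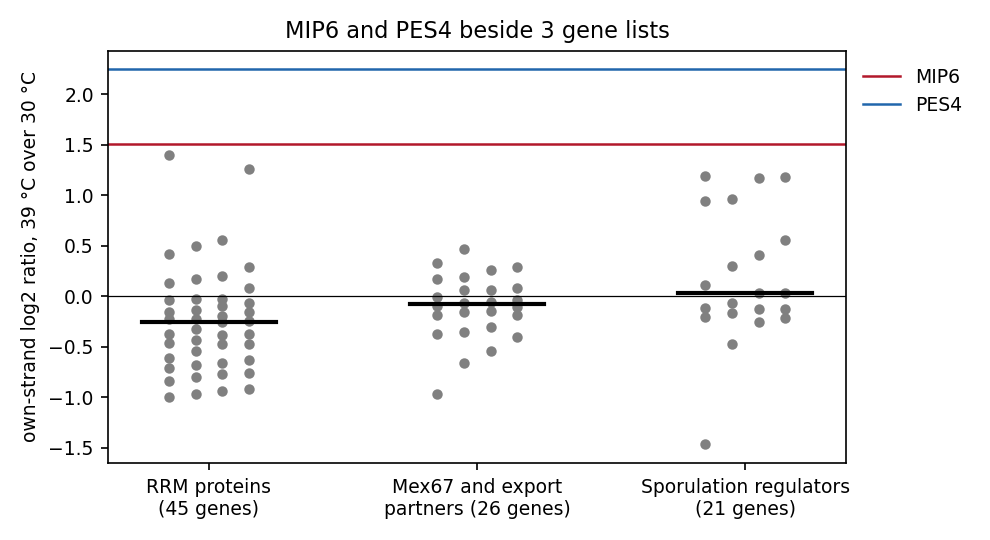
Own-strand log2 ratio, 39 °C over 30 °C, of the measured genes of 3 lists (grey points, spread sideways only for legibility), with the median of each list as a black bar. The red line is MIP6 at 1.51 and the blue line PES4 at 2.25. All points lie below the red line, the nearest being RIE1 at 1.403.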

How the data were processed

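Per the labels, the strands of a temperature are separate samples. Their deposited files list raw read counts by feature and end in 5 summary rows, which were left out of all totals. Reads in no feature made up 22.3% to 24.7% of counted reads and reads ambiguous between features 3.92% to 13.3%. The submitters' processing notes name Bowtie 1.1.1, HTSeq and the builds sacCer3 and R64. Not given in the sources used here are the mismatch filter, strand setting, annotation and any removal of duplicates. PCR copies of a molecule are not independent, so intervals may be too narrow.

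The authors' deposited table holds a log2 ratio and a probability score of their own comparison, which were only quoted, and feature lengths. Another 2 columns of values per library match no label and were not used. The labels do not name its tool.

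Of 7126 features, 6714 have a strand through their systematic name or RefSeq entry, and 6181 had at least 20 own-strand reads. Names and coordinates are those of RefSeq R64. Both strand files were summed for the CPM total, and a count of 0 allows 0.257 CPM at 30 °C and 0.432 at 39 °C (3 counts). A test across libraries needs replicates and was not run, and 2-fold stands in for a call. Intervals of ratios are exact conditional binomial, those of shares and CPM Clopper-Pearson, and those of differences between log2 ratios exact conditional odds ratio intervals, from scipy 1.17.1. The calculation was tested on simulated counts of independent reads, which is what the intervals assume. That checks the code and cannot show how well the intervals cover the error in these libraries. Alternatives were other totals, TMM factors (edgeR 4.0.16), DESeq2 1.42.0 size factors, pseudocounts, read minimums and summed strands. Genes named are the members, 2 annotated neighbours on either side, MEX67, the 4 nearest genes in level, and the 3 highest and 3 lowest of each list. The members and lists were chosen with earlier results of these data known. Promoter motifs and protein sequences were not analysed here.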

Additional observations from a re-analysis of the deposited data

How the results depend on the processing

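The alternatives kept the own-strand and other-strand log2 ratios of MIP6 and PES4, and the difference of their own-strand ratios, inside the counting interval of the reported value. Levels per kilobase, other-strand shares, ranks and nearest genes had no alternative. The own-strand log2 ratio of MIP6 ran from 1.34 with both strands summed to 1.55 with own-strand totals over 8 alternatives, and that of PES4 from 2.05 to 2.29 under the same 2 settings. Their difference ran from 0.71 to 0.72 over 2 alternatives. The count of features at least 2-fold higher ran from 216 with at least 50 reads to 402 with no filter on low counts, and that of features 2-fold lower from 155 to 212. TMM factors, DESeq2 size factors and the other totals shifted all log2 ratios by at most 0.05. No paired analysis was possible because each temperature has 1 library, whose strand samples are not replicates. For the same reason no library could be left out. The counts behind the members, 129 to 453 own-strand reads, limit each ratio.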

Other observations

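SPO13, a meiotic regulator and the nearest protein-coding gene before MIP6, lies 1631 bases before it on the same strand (YHR014W, chromosome VIII, 132047 to 132922). It was named after its values were seen. Its own strand had 47 reads at 30 °C and 40 at 39 °C, a log2 ratio of 0.52 (-0.13 to 1.15). The strand opposite SPO13 had 877 reads at 30 °C and 485 at 39 °C, which is 94.9% (93.3 to 96.2) and 92.4% (89.8 to 94.5) of the reads on the gene. The other-strand log2 ratio of SPO13 was -0.11 (-0.27 to 0.05), unlike those of 0.82 at MIP6 and 1.72 at PES4.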
